A study of Homo sapiens with 10 samples.

Results

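The genes CXCL1, CXCL2, CXCL3, CXCL5, CCL20, IL1A, PLAT, PLAU and TNFRSF11B encode chemokines, a cytokine, plasminogen activators and a soluble receptor that senescent cells are known to release. They are described here in a human colorectal cancer cell line after knockdown of LMNB1, which encodes lamin B1. Each gene was read from the probe annotated to that symbol alone, and where there were several such probes, from the one with the highest mean. Such a probe was found for 8 of the 9 genes, among 14232 genes on the array. CXCL1 had none: its only probe is annotated to both CXCL1 and CXCL2, and that shared probe is given under both names and never as CXCL1 by itself. Of the 8 genes, CXCL3, CXCL5, PLAT and PLAU had a mean log2 level of 5.95 or more, which is the 25th percentile over the whole array. CXCL2, CCL20, IL1A and TNFRSF11B lay below it and are called dim.

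RNA from DLD-1 cells was measured on 10 gene-level exon arrays, which give 1 log2 value per transcript cluster. Every sample is a DLD-1 culture. The knockdown samples carried short hairpin RNA (shRNA) against LMNB1 from construct V2LHS_62673 (single cell clones 8, 9 and 12, 1 array each) or construct V2LHS_62675 (1 clone, 3 arrays). As controls served 3 single cell clones that carried an empty vector (1 array per clone) and untransfected wild type cells (1 array). Puromycin was kept on all cultures but the wild type cells. The sample descriptions and the design text make the 3 V2LHS_62675 arrays repeats of clone 2, which was followed, whereas their titles call them biological replicates of a clone 12. They therefore count as 1 sample in every test, and V2LHS_62675 can be no more than 1 clone as a model of that hairpin.

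The chemokines CXCL1, CXCL2, CXCL3 and CXCL5 belong to the group with a glutamate-leucine-arginine motif, bind the receptor CXCR2 and draw neutrophils, and their genes lie in a cluster on chromosome 4. CCL20 binds CCR6 and is made by intestinal epithelium near lymphoid follicles. In senescent cells, membrane-bound interleukin 1 alpha, encoded by IL1A, signals through its receptor to NF-kB, which drives transcription of many of the secreted chemokines. PLAT and PLAU encode tissue-type and urokinase-type plasminogen activators, which cleave plasminogen to the protease plasmin, and TNFRSF11B encodes osteoprotegerin, a decoy receptor for RANKL and TRAIL. Lamin B1 itself is known to decline in senescent cells.

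The promoters of the chemokine members are shown because they carry a shared stretch that matches the NF-kB motif, although their levels on these arrays differed widely. RefSeq promoters (GRCh38.p14) were held for 7 of the 9 members, and PLAT and TNFRSF11B were not among them. The lines below give, 5′ to 3′ on the gene's strand, the 100 bases before the start of transcription of CXCL1 (chr4:73869293-73869392, plus strand), CXCL2 (chr4:74099196-74099295, minus strand), CXCL3 (chr4:74038690-74038789, minus strand), CXCL5 (chr4:73998678-73998777, minus strand) and CCL20 (chr2:227813742-227813841, plus strand). Capitals mark matches on either strand to the NF-kB motif and, in CCL20, also to the TATA box letters, searched as TATAAA.
CXCL1: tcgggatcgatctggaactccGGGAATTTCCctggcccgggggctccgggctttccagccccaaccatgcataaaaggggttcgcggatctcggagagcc
CXCL2: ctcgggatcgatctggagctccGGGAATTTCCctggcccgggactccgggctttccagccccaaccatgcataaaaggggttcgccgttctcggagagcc
CXCL3: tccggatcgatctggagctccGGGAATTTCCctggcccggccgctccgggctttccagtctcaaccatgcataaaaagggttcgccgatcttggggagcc
CXCL5: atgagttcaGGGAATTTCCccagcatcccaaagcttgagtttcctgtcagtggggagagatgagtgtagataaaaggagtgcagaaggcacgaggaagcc
CCL20: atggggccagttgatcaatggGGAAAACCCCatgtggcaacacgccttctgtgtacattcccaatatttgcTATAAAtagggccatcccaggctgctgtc

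The NF-kB letters began 79 bases before the start in CXCL1 and CXCL3, 78 before it in CXCL2 and 91 before it in CXCL5, and the CCL20 match lay on the other strand, from 79 bases before the start. Both strands of the 300 base promoters were searched, and 1.91% of 35116 promoters held a match. Over the printed stretch CXCL1 was 94.1% identical to CXCL2, 90.0% to CXCL3 and 52.2% to CXCL5. The AP-1 motif TGANTCA, present in 7.71% of promoters, was found at 2 places in the promoter of IL1A and in none of the chemokine members. TATAAA, present in 11.5%, was found in CCL20 and IL1A. Neither PLAU promoter held any of the 3 motifs. No overlap between matches of different motifs occurred in the printed stretches, and a match is a description of letters and not of a bound site.

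The array of clone 8 stood apart. It correlated with the other arrays at 0.915 to 0.926 over all probes, and its median was 7.62 where the other 9 arrays had 7.34 to 7.41. For 46.7% of the 11200 features tested its value was higher than on every other array. The members' comparisons are therefore given with and without it. The probe shared by LMNB1 and PCIF1 read 8.84 to 9.52 on the control arrays and 7.45 to 7.79 on the knockdown arrays, with no overlap (difference -1.46, SE 0.17, limma adjusted p = 0.0602; -1.51 and 0.0563 without clone 8). Of 12 colon epithelium markers 11 were above the 25th percentile of their own array on all arrays, and KRT20 was dim. The summed log2 level of 13 leukocyte markers was 78.2 to 80.2, but 84.6 on clone 8. Of these 8 were above the dim limit: MS4A1 (7.14 to 7.88), CD14 (6.65 to 7.41), CD68 (7.54 to 8.07), NKG7 (7.51 to 8.31), CD79A, CSF1R, CD53 and LCP1. The other 5, PTPRC, CD3E, CD3D, CD2 and FCER1G, were dim. Fibroblast markers (9 genes) summed to 49.1 to 50.7 and to 54.3 on clone 8, with 5 above the limit (COL1A1, COL1A2, COL3A1, PDGFRB and THY1) and DCN, LUM, FAP and POSTN dim. Endothelial markers (9 genes) summed to 53.0 to 54.5 and to 58.8 on clone 8, with 5 above the limit (VWF, CDH5, TIE1, CLDN5 and ESAM) and PECAM1, KDR, TEK and EMCN dim. The part of this shift in the clone 8 values below was not tested.

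CXCL5 was the only member among the brighter probes. Its mean stood at the 92.3rd percentile of all probes, and within single arrays it ranked from the 82.7th to the 96.0th percentile. The other members above the limit lay far lower: the shared CXCL1/CXCL2 probe at the 40.0th, PLAT at the 41.2nd, PLAU at the 39.8th and CXCL3 at the 32.9th percentile. Among the dim members TNFRSF11B stood at the 21.4th percentile, CCL20 at the 15.8th, CXCL2 at the 14.6th and IL1A at the 7.46th. CXCL2, CCL20 and IL1A were under the 25th percentile of their own array on all 10 arrays, and TNFRSF11B exceeded it on 1. A level below the limit does not show that a gene is silent, and levels of different probes are placed here by rank within the array because probes differ in affinity.

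**Figure D1:**
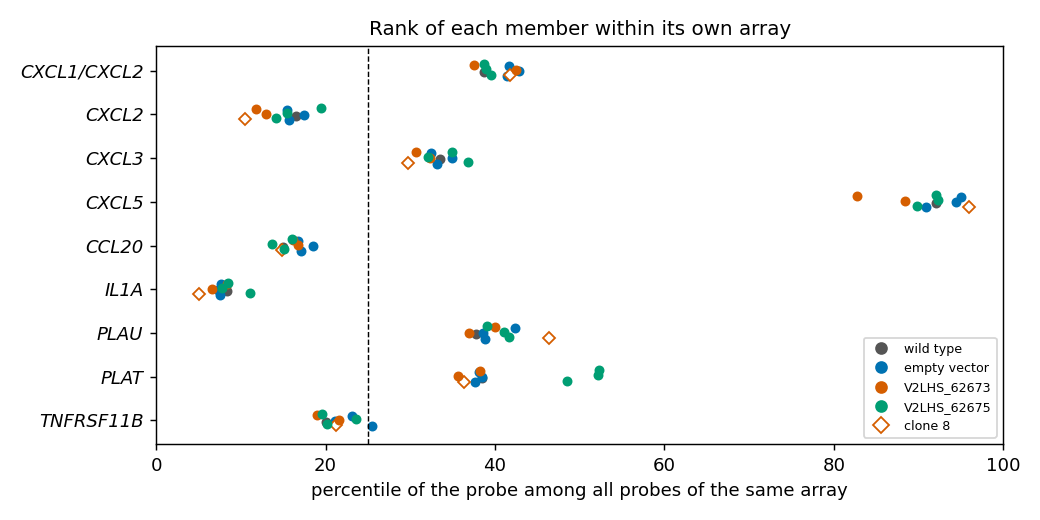
Rank of each member's probe (x axis, percentile among all 22011 probes of the same array) on the 10 arrays, coloured by group, with an open diamond for clone 8 and a dashed line at the 25th percentile. CXCL5 sits at the 82.7th percentile or higher on every array, the 3 V2LHS_62675 points of PLAT sit to the right of all other PLAT points, and CXCL2, CCL20 and IL1A stay left of the line.

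The CXCR2 ligands differed from each other in how the clones lay. CXCL5, which encodes the ligand also called ENA-78, read 10.52 in wild type cells and 10.31, 10.94 and 10.98 in the empty vector clones. In V2LHS_62673 it read 11.20 in clone 8, 9.95 in clone 9 and 9.39 in clone 12, and in V2LHS_62675 it read 10.13, 10.57 and 10.56 on arrays 1 to 3. Clone 8 was thus the highest and clones 9 and 12 the lowest of all 10 arrays. Of all features tested, 3.52% had clones 9 and 12 below every other array. The SD of CXCL5 was 0.37 among the 3 empty vector clones and 0.93 among the 3 V2LHS_62673 clones.

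The shared CXCL1/CXCL2 probe read 6.74 in wild type cells and 6.93, 6.95 and 6.98 in the empty vector clones. The V2LHS_62673 clones 8, 9 and 12 read 7.27, 7.01 and 6.73, and the V2LHS_62675 arrays 6.86, 6.82 and 6.72. The empty vector clones lay within 0.03 (SD) of each other, clone 8 above them, clone 12 and the V2LHS_62675 arrays below. The probe of CXCL2 alone was dim and gave 5.14 in wild type cells, 5.12, 5.18 and 5.09 with the empty vector, 5.02, 4.93 and 4.77 in clones 8, 9 and 12, and 5.03, 5.14 and 5.39 with V2LHS_62675. All 3 V2LHS_62673 clones were below all other arrays of this dim probe, but clone 8 (5.024) only just below array 1 of V2LHS_62675 (5.033). No share over all features was computed for this placing. Of the features tested, 13.8% had V2LHS_62673 clones that did not overlap the empty vector clones. Tested without the filter, CXCL2 differed from the empty vector by -0.22 (limma adjusted p = 0.697), and by -0.28 (0.227) without clone 8.

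CXCL3, which encodes a ligand also known as GRO-gamma, was the most even of the members above the limit. It read 6.43 in wild type cells and 6.46, 6.50 and 6.45 in the empty vector clones. The values were 6.65, 6.46 and 6.32 in clones 8, 9 and 12 and 6.72, 6.43 and 6.49 on the V2LHS_62675 arrays. Array 1 of V2LHS_62675 and clone 8 were the highest, clone 12 was the lowest, and the knockdown values enclosed those of the controls. The 3 arrays of clone 2 spread by an SD of 0.15, more than the 0.03 among the empty vector clones.

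CCL20 and IL1A were dim throughout. CCL20 read 5.01 in wild type cells, 5.25, 5.28 and 5.21 with the empty vector, 5.47, 5.26 and 5.17 in clones 8, 9 and 12, and 5.12, 4.97 and 5.11 with V2LHS_62675. Wild type cells, clone 12 and the 3 V2LHS_62675 arrays were thus below the empty vector clones, a placing for which no share over all features was computed. Tested without the filter, the differences from the empty vector were -0.18 in V2LHS_62675 and -0.23 in wild type cells, and neither passed. IL1A ranged from 4.22 to 4.73 with a median of 4.33, and its highest value was array 1 of V2LHS_62675, while the other 2 arrays of that clone gave 4.38 and 4.39.

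PLAT, the gene of tissue-type plasminogen activator, separated clone 2 from all else. It read 6.72 in wild type cells and 6.72, 6.72 and 6.78 in the empty vector clones. Clones 8, 9 and 12 of V2LHS_62673 gave 7.01, 6.64 and 6.78. The V2LHS_62675 arrays gave 7.31, 7.50 and 7.47, so all 3 were above each of the other 7 arrays, a placing that 2.22% of the features tested shared. Within their own arrays they ranked from the 48.5th to the 52.3rd percentile, against the 35.6th to the 38.5th on the other arrays, clone 8 included.

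PLAU, the gene of urokinase, did not follow PLAT. It read 6.68 in wild type cells, 6.80, 6.72 and 7.02 in the empty vector clones and 7.47, 6.71 and 6.86 in clones 8, 9 and 12. The V2LHS_62675 arrays gave 6.97, 6.95 and 6.74. Apart from clone 8, which was the highest, every knockdown value lay within the range of the empty vector clones or 0.01 below it. A second PLAU probe, shared by annotation with C10orf55, was dim at 4.66 to 5.46 and was also highest in clone 8.

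TNFRSF11B, the dim osteoprotegerin gene, read 5.46 in wild type cells and 5.93, 5.51 and 5.75 with the empty vector. Clones 8, 9 and 12 gave 6.04, 5.69 and 5.42, and the V2LHS_62675 arrays 5.57, 5.84 and 5.41. The groups overlapped fully. Clone 8 was the highest array for TNFRSF11B, CXCL5, CCL20, PLAU and the shared CXCL1/CXCL2 probe, 5 of the 9 probes plotted, beside the 46.7% of all features tested.

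**Figure D2:**
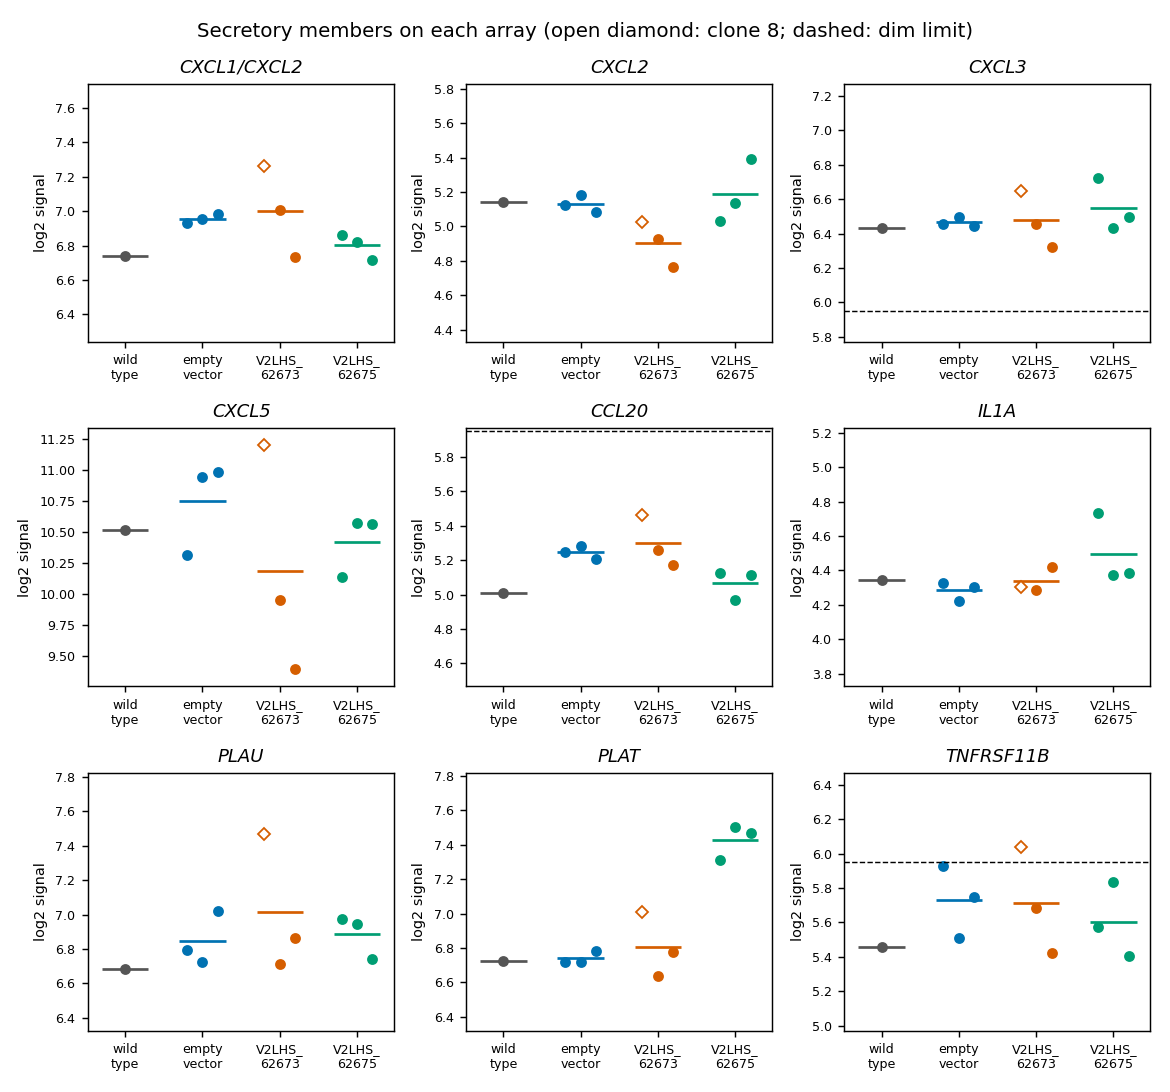
Log2 level (y axis, each panel with its own range) of each member on the 10 arrays, grouped on the x axis as wild type, empty vector, V2LHS_62673 and V2LHS_62675, with a bar at the mean of the arrays in a group, an open diamond for clone 8 and a dashed line at the dim limit of 5.95 where it falls in the panel. CXCL5 runs from 9.39 in clone 12 to 11.20 in clone 8, and PLAT reaches 7.31 to 7.50 on the V2LHS_62675 arrays against at most 7.01 elsewhere.

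In the comparison of the 4 knockdown clones with the 4 controls no member passed the test. It compares averages over clones, and 3 of the 4 knockdown clones carry V2LHS_62673. An effect common to both hairpins was therefore not tested by itself. The differences (knockdown minus control, log2, limma, n = 4 against 4) were -0.45 for CXCL5 (SE 0.34, adjusted p = 0.761), 0.23 for PLAT (SE 0.17, adjusted p = 0.761), 0.18 for PLAU (SE 0.18, adjusted p = 0.761), 0.04 for CXCL3 (SE 0.12, adjusted p = 0.892) and 0.05 for the shared probe (SE 0.15, adjusted p = 0.883). Adjustment was over all 11200 features, of which 0.0% passed the threshold of 0.05 and 2.29% had an unadjusted p under it, while 0 of these 5 did. The groups of all 5 overlapped, where 3.14% of all features had groups that did not. The 95% intervals reached from -1.21 to 0.31 for CXCL5 and from -0.15 to 0.61 for PLAT, so that a decrease of CXCL5 by more than 1 log2 unit lay within them. The difference of CXCL5 was -0.77 without clone 8 (SE 0.24, limma unadjusted p = 0.0117, adjusted p = 0.683), 1 of the 5 with an unadjusted p under 0.05 beside 6.47% of features. Without it the other differences were 0.21 for PLAT, 0.015 for PLAU, -0.015 for CXCL3 and -0.055 for the shared probe, so those of CXCL3 and the shared probe turned negative. Again no member and 0.0% of features passed, and all 5 groups overlapped, where 6.12% did not. The 4 dim members were tested without the filter on dim probes, and their adjusted p-values were 0.696 or higher with all clones and 0.796 or higher without clone 8.

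Against the empty vector clones, CXCL5 was lower by 0.57 in the 3 V2LHS_62673 clones (SE 0.45, 95% interval -1.62 to 0.49, limma adjusted p = 0.741), and no member and 0.0% of features passed. An unadjusted p under 0.05 was found for 0 of the 5 and for 3.2% of features, and groups without overlap for 0 of the 5 and 13.8%. PLAT differed by 0.07, PLAU by 0.17, CXCL3 by 0.01 and the shared probe by 0.05 with all clones. Without clone 8 all 4 turned negative, at -0.034, -0.058, -0.075 and -0.086 in the same order, and none passed. With clone 8 left out, CXCL5 fell in clones 9 and 12, to 9.67 ± 0.39 (SD, n = 2) from 10.74 ± 0.37 (SD, n = 3). This is a difference of -1.08 (SE 0.20, 95% interval -1.53 to -0.62), 2.11-fold lower, at a limma adjusted p of 0.0398, and 1.03% of all features passed. Its groups no longer overlapped, which held for 32.3% of features. The call was not stable: it was lost without empty vector clone 2 (adjusted p = 0.216), empty vector clone 3 (0.287) or clone 12 (0.0592), without the filter on dim probes (0.0561) and after quantile normalization (0.0907). It passed in 2 of the 5 repeats that left out 1 more sample of the comparison, those without empty vector clone 1 or clone 9. The share of all features past the threshold moved as well: 4 features (0.0357%) passed without empty vector clone 3, 5 without empty vector clone 2 and 504 (4.5%) without empty vector clone 1. Among the alternatives with clone 8 kept, array quality weights gave -0.91 (adjusted p = 0.0208), with 3.04% of features past the threshold. The difference of clone 12 from the empty vector mean was -1.36 and that of clone 9 was -0.80.

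The V2LHS_62675 clone had more PLAT than the empty vector clones. PLAT was higher by 0.69 (SE 0.22, 95% interval 0.18 to 1.20), 1.61-fold, with a limma unadjusted p of 0.0151 and an adjusted p of 1.00, and no member and 0.0% of features passed. It was the 1 of the 5 with an unadjusted p under 0.05, beside 2.63% of features. Without clone 8 the same difference had an SE of 0.12, an interval of 0.43 to 0.95 and an adjusted p of 0.0142, so PLAT rose by this test, together with 3.74% of all features. Here the clone counts as 1 sample, and its spread is assumed to be that of the other groups, which without clone 8 are the 3 empty vector clones and clones 9 and 12. PLAT stayed past the threshold in 6 of the 8 repeats in which leaving out 1 more array altered the fit. Here and below, the 8 repeats include those that left out 1 of the 3 arrays of clone 2, which are not separate samples. PLAT missed the threshold without empty vector clone 2 (adjusted p = 0.0666) or clone 3 (0.0546). Over the 8 repeats 0.625% (without empty vector clone 3) to 9.12% (without array 1 of V2LHS_62675) of features passed. CXCL5 was lower by 0.32 (SE 0.26, adjusted p = 0.637 without clone 8), and PLAU (0.04), CXCL3 (0.08) and the shared probe (-0.16) differed by less than 0.2.

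Wild type cells differed little from the empty vector clones in the members, a comparison of 1 culture with 3 clones that also differ in puromycin, vector and cloning. Differences (wild type minus empty vector) were -0.23 for CXCL5, -0.22 for the shared probe, -0.16 for PLAU, -0.03 for CXCL3 and -0.02 for PLAT. None passed with all clones (0.0% of features) or had an unadjusted p under 0.05 (2.59% of features), and none passed without clone 8 (3.6% of features), where the lowest adjusted p by limma was 0.425, for the shared probe. With 1 more sample left out, 0.143% (without empty vector clone 2) to 6.66% (without clone 9 or 12) of features passed.

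**Figure D3:**
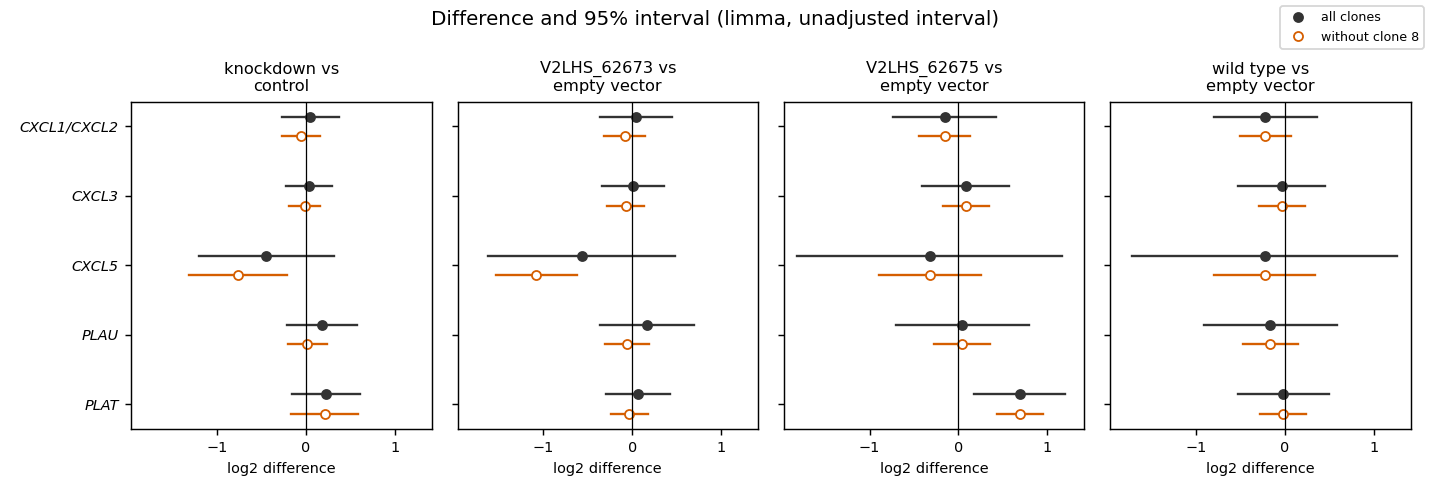
Difference in log2 level (x axis) with its 95% interval from limma for the shared CXCL1/CXCL2 probe, CXCL3, CXCL5, PLAU and PLAT in 4 comparisons, with all clones (filled) and without clone 8 (open). Without clone 8 the interval of CXCL5 in V2LHS_62673 lies below 0 (-1.53 to -0.62) and that of PLAT in V2LHS_62675 above 0 (0.43 to 0.95).

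Compared directly, the 2 hairpins differed in PLAT by this test only when clone 8 was left out. V2LHS_62675 is 1 clone, so hairpin and clone cannot be told apart here. The level was higher in V2LHS_62675 than in V2LHS_62673 by 0.62 (SE 0.22, 95% interval 0.11 to 1.13, limma adjusted p = 0.932, 0.0% of features past the threshold). Its unadjusted p was 0.0237, 1 of the 5 under 0.05 beside 2.23% of features. Without clone 8 it was higher by 0.72 (SE 0.13, interval 0.45 to 1.00, adjusted p = 0.0220, 2.15% of features past the threshold), again losing the call without empty vector clone 2 (adjusted p = 0.0574) or clone 3 (0.0581). Over the 8 repeats 0.607% (without empty vector clone 2) to 8.56% (without array 1 of V2LHS_62675) of features passed. The epithelial marker VIL1, which encodes villin, passed in the same direction (0.68, adjusted p = 0.0389), as 1 of 11 colon epithelium markers above the limit. It read 8.63, 8.99 and 8.99 with V2LHS_62675, 8.37, 8.09 and 8.29 in clones 8, 9 and 12, 8.51, 8.69 and 8.64 with the empty vector and 8.95 in wild type cells, and its part in the PLAT difference was not tested. The VIL1 call held in 3 of 8 repeats and was lost without empty vector clone 2 or 3, clone 9, or array 2 or 3 of V2LHS_62675. CXCL5 was higher in V2LHS_62675 by 0.24 with all clones (SE 0.63), and by 0.75 without clone 8 (SE 0.27, adjusted p = 0.201), so the fall of CXCL5 in clones 9 and 12 was not shown to differ from the clone 2 value. CXCL3, PLAU and the shared probe differed by 0.07, -0.13 and -0.20 with all clones and by 0.16, 0.098 and -0.070 without clone 8, so PLAU changed sign, and none passed. These comparisons share control samples or clones with those above.

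Genes that act with the members were read from lists of related genes. Among the plasminogen system, 12 of 16 genes had a probe of their own and 8 were above the dim limit. With all clones none of these passed in any comparison. Without clone 8, tissue factor (F3), which starts coagulation, was higher in V2LHS_62675 than in the empty vector clones by 0.84 (SE 0.12). Its limma adjusted p was 0.00602, as 1 of 8 beside 3.74% of all features. F3 was also higher in V2LHS_62675 than in V2LHS_62673 by 0.76 (adjusted p = 0.0178), beside 2.15% of features. Its values were 9.38 in wild type cells, 8.81, 8.90 and 8.90 with the empty vector, 8.60, 8.94 and 8.97 in clones 8, 9 and 12 and 9.37, 9.86 and 9.90 with V2LHS_62675, so wild type cells lay beside array 1 of clone 2, and they too passed against the empty vector (0.51, adjusted p = 0.0402, beside 3.6% of features). The wild type call was lost without any 1 of the 3 empty vector clones (adjusted p = 0.0515, 0.106 and 0.103), whereas both calls in V2LHS_62675 held in all 8 repeats. Neuroserpin (SERPINI1), an inhibitor of tissue-type plasminogen activator, read 6.35, 6.65 and 6.61 with V2LHS_62675 against 5.81 to 6.06 with the empty vector. It read 5.85, 5.58 and 5.13 in clones 8, 9 and 12 and 5.77 in wild type cells. Outside V2LHS_62675 only empty vector clone 2 exceeded the dim limit of 5.95, so SERPINI1 counted among the 8 through the V2LHS_62675 arrays. Without clone 8 it was higher in V2LHS_62675 than in V2LHS_62673 by 1.18 (SE 0.18). The filter kept SERPINI1 for the group where it was high, so this difference is a description and is not counted as a call. Part of it was the low level of clones 9 and 12, which lay below every empty vector clone. Without clone 8, 32.3% of features had V2LHS_62673 clones that did not overlap the empty vector clones. Against the empty vector SERPINI1 was higher in V2LHS_62675 by 0.61, also a description. The urokinase receptor gene PLAUR was 8.35 to 8.46 in clones 9 and 12, 7.89 in clone 8 and 8.92 to 9.19 in V2LHS_62675, against 8.53, 9.19 and 9.27 with the empty vector and 8.37 in wild type cells (knockdown minus control -0.40, adjusted p = 0.761; -0.22 without clone 8). The plasminogen list had a median difference of 0.08 in V2LHS_62675 without clone 8, beside 0.02 over all features.

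Of 36 other chemokines, 29 had a probe of their own and 14 were above the limit. No chemokine passed with all clones. Without clone 8 one of the 14, CCL26 (eotaxin-3, which draws eosinophils), rose in V2LHS_62675 against the empty vector by 0.60 (SE 0.13, limma adjusted p = 0.0347), beside 3.74% of all features, and against V2LHS_62673 by 0.71 (adjusted p = 0.0339), but its arrays read 6.47, 7.25 and 7.35, and array 1 lay within the empty vector range of 6.29 to 6.56. Both calls held in 4 of 8 repeats with 1 more array left out. They were lost without empty vector clone 2 or 3 or array 2 or 3 of V2LHS_62675 (adjusted p up to 0.108 against the empty vector). In the chromosome 4 cluster, CXCL8, which encodes interleukin 8, was above the limit with 7.14 in wild type cells, 7.50, 7.92 and 7.78 with the empty vector, 8.15, 7.69 and 6.93 in clones 8, 9 and 12 and 7.49, 7.47 and 7.34 with V2LHS_62675. Over clones its order resembled that of the shared CXCL1/CXCL2 probe, with clone 8 highest and clone 12 and wild type cells lowest in both, and it changed in no comparison (knockdown minus control -0.03, adjusted p = 0.961; -0.23 without clone 8). CXCL6 and PPBP were dim, and PF4 had no probe of its own. CXCL8 had no exact match to the NF-kB letters in its promoter window but matched AP-1 and TATAAA. Looser forms of the NF-kB motif were not searched, so this does not show that CXCL8 lacks such a site.

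The receptors and upstream genes gave few calls. Of 12 chemokine receptors 2 were above the limit, CXCR3 (0.19, knockdown minus control, and 0.11 without clone 8) and the atypical receptor ACKR1 (0.31 and 0.061), and neither passed. Of 9 genes of the interleukin 1 family above the limit, IL18, which encodes a related cytokine, was lower in V2LHS_62673 without clone 8 by 0.85 (SE 0.14, limma adjusted p = 0.0266), as 1 of 9 beside 1.03% of features. It was also higher in V2LHS_62675 than in V2LHS_62673 (0.87, adjusted p = 0.0447). The first call was lost without empty vector clone 2 (adjusted p = 0.174) or clone 3 (0.219), and the second held in 3 of 8 repeats, being lost without either of these clones, clone 9, or array 2 or 3 of V2LHS_62675. IL18 read 9.24, 8.82 and 9.20 in clones 8, 9 and 12 against 9.63, 9.92 and 10.02 with the empty vector, 9.34 in wild type cells and 9.62, 9.89 and 10.12 with V2LHS_62675, so unlike CXCL5 it was low in clone 8 as well. Among 26 NF-kB signalling genes above the limit 0 passed in any comparison by limma, with or without clone 8. RELA, the p65 subunit, differed by 0.24 in knockdown against control (adjusted p = 0.761) and by 0.17 without clone 8 (adjusted p = 0.753). In that comparison 0 of 26 had an unadjusted p under 0.05, beside 2.29% of features. Without clone 8 this held for 3 of 26, beside 6.47% of features. Of 5 measured genes for osteoprotegerin ligands and TRAIL receptors none passed, and TNFRSF11A, the receptor for RANKL, differed by 0.27 (adjusted p = 0.761), and by 0.10 without clone 8.

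Of 41 other senescence-secreted factors, 21 were above the limit, and none passed with all clones. EREG, which encodes the EGF receptor ligand epiregulin, had the smallest p among them (knockdown minus control -0.60, SE 0.22, limma adjusted p = 0.761; -0.45 without clone 8). It read 10.75, 11.33 and 10.85 in clones 8, 9 and 12, below the 11.62 to 11.92 of the controls, and 12.05, 11.60 and 11.74 with V2LHS_62675. Of all features tested, 13.8% had V2LHS_62673 clones that did not overlap the empty vector clones. VEGFA differed by -0.37 (-0.35 without clone 8). Without clone 8, TIMP3, an inhibitor of metalloproteases, passed between the hairpins (0.70 higher in V2LHS_62675, adjusted p = 0.0401), as 1 of 21 beside 2.15% of features. That call held in 5 of 8 repeats and was lost without empty vector clone 2 or 3 or clone 9 (adjusted p up to 0.088). TIMP3 read 8.38, 8.26 and 8.12 with V2LHS_62675 and 8.20, 7.42 and 7.69 in clones 8, 9 and 12. The left-out clone 8 thus lay within the V2LHS_62675 range. With the empty vector it read 7.74, 7.78 and 7.89, and in wild type cells 7.70. Against the empty vector TIMP3 was higher in V2LHS_62675 by 0.45 and did not pass. The median difference of the 21 genes was 0.09, beside 0.04 over all features, and -0.015 beside 0.0052 without clone 8. Of 9 measured senescence arrest and nuclear markers none passed, with LMNB2 at 0.24, CCNA2 at -0.37 and CDKN2B at 0.15 in knockdown against control. Without clone 8 these were 0.14, -0.071 and -0.034, so CDKN2B changed sign.

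**Figure D4:**
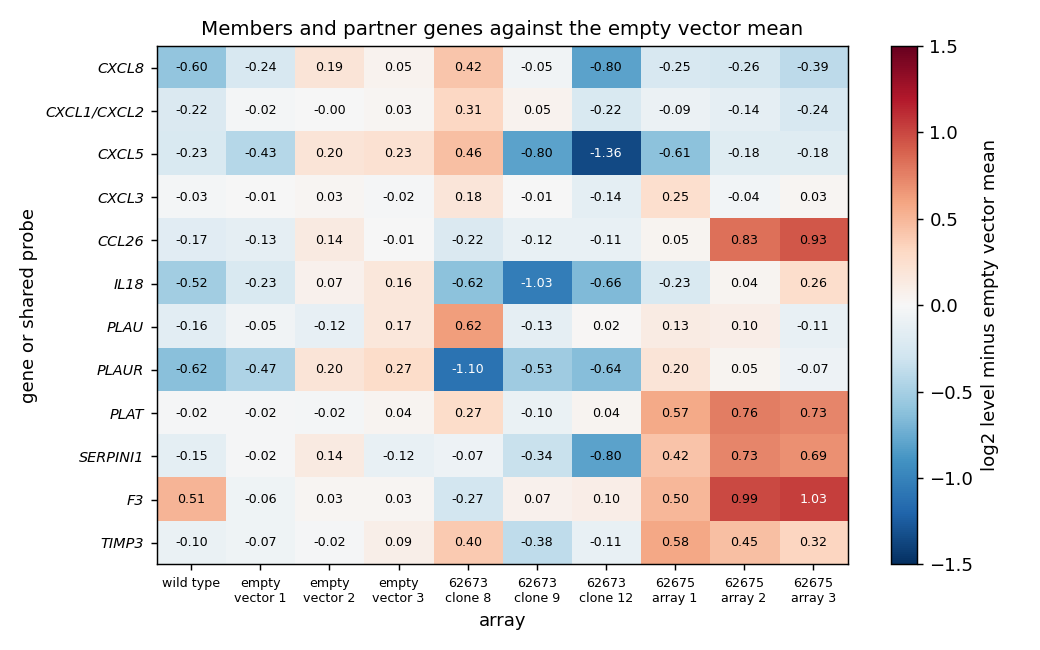
Log2 level minus the mean of the 3 empty vector clones (colour and printed value) for members and partner genes (y axis) on the 10 arrays (x axis). PLAT, SERPINI1 and F3 are positive on all 3 V2LHS_62675 arrays, CCL26 is near 0 on array 1 and at 0.83 and 0.93 on arrays 2 and 3, and CXCL5 is -0.80 in clone 9 and -1.36 in clone 12 but 0.46 in clone 8.

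Across the 7 clone-level samples other than clone 8, the members did not move as one. Pearson's r, given as a description over samples that share groups, was 0.43 between the shared CXCL1/CXCL2 probe and CXCL5, 0.64 between CXCL3 and CXCL5, 0.40 between PLAT and PLAU and 0.07 between CXCL5 and PLAT. The closest pair was the shared probe with CXCL8, at 0.90 without clone 8 and 0.91 with it. PLAU correlated with the shared probe at 0.07 without clone 8 and at 0.73 with it. The genes most like CXCL5 were PYGB (r = 0.99), YIF1B (0.98) and TARS2 (0.98), and 142 of 11199 other features reached 0.9. For PLAT they were PQBP1 (0.97), LSM14A (0.97) and TMEM216 (0.96), with 38 at 0.9 or more. For PLAU they were PITPNM2, ZNF296 and PARP10, for CXCL3 MUCL3, UXT and HOXD11, and for the shared probe TMEM268, KCNH8 and CIMIP5. With clone 8 included, the r of PYGB with CXCL5 was 0.32, that of LSM14A with PLAT 0.34 and that of UXT with CXCL3 -0.57.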

How the data were processed

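The files hold the authors' deposited log2 values, 1 per probe for 22011 probes on 10 arrays. No label names the log base, which was judged from how far the values reach. For background correction, normalization, probe summary and genome build the entry is: not given in the sources used here. Per the labels, RNA was extracted with Trizol, depleted of ribosomal RNA and labelled with biotin. Probes with 1 gene symbol numbered 14432, with several 2408 and with none 5171. Values were used as deposited. The 3 arrays of clone 2 were averaged, giving 8 clone-level samples.

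The two-sided test of each difference was limma's (version 3.58.1, lmFit and eBayes, in R 4.3.3). Its p-values were adjusted by Benjamini-Hochberg over 11198 genes and 2 shared probes above the dim limit, at a threshold of 0.05. Knockdown against control used 6 residual degrees of freedom, and the fit of 4 groups 4, or 3 without clone 8. The scripts were tested on simulated data. Nothing beyond the clone names says that samples came from separate cultures, so p-values measure the spread between these samples. The number of arrays limits the precision.

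The members and the lists of related genes were chosen with earlier results of these data known. Named genes are the members, up to 4 genes per list with the smallest p in knockdown against control, of which some are given, any list gene past the threshold, the chromosome 4 neighbours and the 3 most correlated genes per member above the limit. Alternatives were other scalings, filters, probe summaries, priors, array weights, blocks, controls and left-out samples. Those that combine leaving out clone 8 with another choice were added after seeing the data. The exception is the 1 that also used the empty vector clones alone as controls, which was planned. Replicate numbers 1 to 3 of V2LHS_62675 and the empty vector did not pair samples (correlations of deviations 0.03, -0.15 and -0.24).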

Additional observations from a re-analysis of the deposited data

Results flagged for a closer look

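PLAT in empty vector clone 3 read 6.78, above the other 3 controls at 6.72 each, and was marked because this gap took up 0.91 of the range of the 4 values, more than the 0.829 allowed for 4 samples. Chance marks about 1 in 20 groups, and 18 groups were examined.

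PLAT also differed between the hairpins once clone 8 was left out, by 0.72 on the log2 scale (V2LHS_62675 minus V2LHS_62673, limma adjusted p = 0.0220), which was the test of the difference itself. With all clones the difference was 0.62 and the adjusted p 0.932.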

How the results depend on the processing

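With all clones and the values as deposited, 0 features and 0 members passed in each of the 5 comparisons by limma (257 features at an unadjusted p under 0.05 in knockdown against control). Knockdown against control gave 7 features with array quality weights, 1 with clone as a random block, 2 with every array as a replicate, 1 after quantile normalization, 1 with a trended robust prior, 3 with the empty vector clones alone as controls and 19 when these were used without clone 8. No member was among the calls of any of these. The counts ranged from 0 to 3 when each sample was left out in turn. For V2LHS_62673 against the empty vector the counts were 341 with array weights, 5 with the random block, 6 with every array, and, without clone 8, 71 with no filter and 27 after quantile normalization, and leaving out samples gave 0 to 115. For V2LHS_62675 they were 472, 1, 58, 280 and 283 in the same order, and 0 to 419. For the 2 hairpins against each other they were 367, 4, 15, 127 and 153, and 0 to 241. For wild type cells they were 476 with array weights, 1 with no filter, 269 and 202 without clone 8 with no filter and after quantile normalization, and 0 to 403. The number of members past the threshold was 1 with array weights for V2LHS_62673 (CXCL5), V2LHS_62675 (PLAT) and the hairpin comparison (PLAT). It was 1, again PLAT, in the latter 2 comparisons without clone 8 with no filter or after quantile normalization, and 0 to 1 when samples were left out in turn. With the replicate number as a block and every array counted, V2LHS_62675 against the empty vector gave 948 features and 1 member, PLAT, but the numbers do not pair these samples.

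Values close to 0 changed sign. In knockdown against control the shared CXCL1/CXCL2 probe stood at -0.051 after quantile normalization, -0.019 after median centring, -0.059 with array weights, -0.0012 with every array, -0.0052 with empty vector controls alone and -0.11 with these and without clone 8. Without clone 8 it was -0.055 with no filter and -0.079 after quantile normalization, and leaving out samples gave -0.055 to 0.12. CXCL3 stood at -0.10, -0.032 and -0.036 after quantile normalization, median centring and array weights, at -0.023 with empty vector controls alone and without clone 8, and without clone 8 at -0.015 with no filter and -0.060 after quantile normalization, with -0.015 to 0.093 over left-out samples. PLAU was -0.025 with empty vector controls alone and without clone 8, and -0.013 after quantile normalization without clone 8. PLAT in V2LHS_62673 was -0.077, -0.013 and -0.050 after quantile normalization, median centring and array weights. Without clone 8 it was -0.034 with no filter and -0.066 after quantile normalization, with -0.034 to 0.15 over left-out samples. PLAT in wild type cells was 0.020 after quantile normalization, with or without clone 8, and 0.019 after median centring, with -0.029 to 0.0040 over left-out samples. CXCL5 between the hairpins ranged from -0.15 to 0.75 over left-out samples, negative without clone 12. Of 246 further values of the members in other comparisons 29 changed sign, with adjusted p-values of 0.425 or more. The cause of these changes was not tested. Directions of CXCL5 in knockdown against control and in V2LHS_62673, and of PLAT in knockdown against control and in V2LHS_62675, were the same in all alternatives run. Signal limits the 4 dim members, whose probes lie near the bottom of each array.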
